A study of Mus musculus with 12 samples.

Results

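The miR-15/16 family is described here in small RNA libraries from the retina of db/db mice. It was taken as the precursors mmu-mir-15a, mmu-mir-15b, mmu-mir-16-1, mmu-mir-16-2, mmu-mir-195a and mmu-mir-497a, chosen by name and written below without the species prefix. They are 6 of the 1532 precursors with reads in these libraries, of which 997 are annotated miRNAs and 535 were predicted by the submitters. Each precursor is a hairpin whose 5p and 3p strands (arms) can both give a mature miRNA. Reads were counted once per arm, and since mir-16-1 and mir-16-2 give the same miR-16-5p, the family has 11 arms.

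All 12 samples are labelled db/db on a KsJ background, but the full strain name differs in every sample, from C57BL/KsJ-db/db to C68BL/KsJ-db/db, and was not used. Without functional leptin receptor, such animals grow obese and develop diabetes. One group of 6 libraries carries the label model, read here as untreated animals of that genotype, and the other 6 come from treatment with Keluoxin, a Chinese herbal capsule. The labels give no dose, duration or age, and no sample from a mouse without diabetes was analysed here. The tissue is labelled retinal, but the RNA extraction is described for a pellet of exosomes. Whether each sample was a different animal is not stated either, so the p-values measure the spread between samples, which may be partly technical.

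A mature miRNA is loaded into an Argonaute protein and pairs with messenger RNAs mainly through its seed, bases 2 to 8 from its 5′ end, which lowers the output of the paired messages. Members of the miR-15/16 family share their seed and are known for restraining cell division through cyclins and their kinases and for targeting the survival gene Bcl2. They are also known to target Vegfa, the growth factor of new vessels in diabetic eye disease.

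The family comes from 3 pairs of neighbouring hairpins. In GRCm38, mir-15a (chr14:61632027-61632110, minus strand) lies in an intron of the non-coding gene Dleu2, and mir-16-1 (chr14:61631880-61631972, minus strand) overlaps an exon of it, 54 bases away. mir-15b (chr3:69009772-69009835) and mir-16-2 (chr3:69009902-69009996) lie 66 bases apart in introns of Smc4, a condensin subunit, on the plus strand. mir-497a (chr11:70234717-70234800) and mir-195a (chr11:70235042-70235135) lie 241 bases apart on the plus strand, and mir-497a overlaps mir-497b on the other strand.

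The mature sequences show what the members share and where they differ. They are RefSeq's for GRCm38.p6, written 5′ to 3′ with the seed in capitals, and the 5p arms, which hold nearly all reads, come first.
miR-16-5p: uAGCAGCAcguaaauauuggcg
miR-195a-5p: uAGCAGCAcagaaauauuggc
miR-15a-5p: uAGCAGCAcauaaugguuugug
miR-15b-5p: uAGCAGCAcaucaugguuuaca
miR-497a-5p: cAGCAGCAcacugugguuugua
miR-16-1-3p: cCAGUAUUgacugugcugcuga
miR-16-2-3p: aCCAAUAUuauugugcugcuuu
miR-195a-3p: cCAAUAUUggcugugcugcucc
miR-15a-3p: cAGGCCAUacugugcugccuca
miR-15b-3p: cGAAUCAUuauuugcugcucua
miR-497a-3p: cAAACCACacugugguguuag
All 5 5p arms have the seed AGCAGCA, while no seed is shared among the 6 3p arms. Of 21 compared positions, 10 are identical in all 5 5p arms, and these include the whole seed. miR-16-5p and miR-195a-5p are closest, with 19 of 21 positions identical, and miR-16-5p and miR-497a-5p share 11 of 22.

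The hairpins of the mir-16 copies are shown because only their loops, 3p arms and flanks tell them apart. The sequences are those of the precursors in the deposited tables, with both mature arms in capitals.
mir-16-1: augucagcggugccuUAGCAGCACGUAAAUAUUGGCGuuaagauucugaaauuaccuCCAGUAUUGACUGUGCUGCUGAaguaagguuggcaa
mir-16-2: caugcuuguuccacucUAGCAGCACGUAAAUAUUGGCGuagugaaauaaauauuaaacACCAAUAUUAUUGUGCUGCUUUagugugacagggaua
Of the miR-16-5p reads, 98.8% lay on both copies, so this arm cannot be divided between chromosomes 14 and 3.

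The reads themselves ended at several places on the 3′ side. The forms that the results on read length and read ends turn on are printed as sequenced, as DNA, with a capital for a base that differs from the precursor.
miR-15b-5p, 19 nt: tagcagcacatcatggttt
miR-15b-5p, 21 nt: tagcagcacatcatggtttac
miR-15b-5p, 21 nt with a changed last base: tagcagcacatcatggtttaT
miR-15b-5p, 22 nt: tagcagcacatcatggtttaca
miR-15a-5p, 20 nt: tagcagcacataatggtttg
miR-15a-5p, 21 nt: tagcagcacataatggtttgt
miR-16-5p, 22 nt: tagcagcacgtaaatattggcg
miR-16-5p, 22 nt with a changed last base: tagcagcacgtaaatattggcA
miR-16-5p, 22 nt with another changed last base: tagcagcacgtaaatattggcT
miR-195a-5p, 22 nt: tagcagcacagaaatattggca
miR-195a-5p, 22 nt with a changed last base: tagcagcacagaaatattggcG
mir-16-1, 20-nt read of the loop: ttaagattctgaaattacct

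The libraries held 1933375 (Keluoxin replicate 5) to 7892147 (model replicate 3) counted reads, and depth did not pass the test between groups (exact two-sided permutation test, p = 0.234, adjusted over 3 library measures 0.234). Family reads took 0.175 to 0.283% of the counted reads in model and 0.1696 to 0.304% in Keluoxin libraries. The summed level of 5 retinal neuron and photoreceptor miRNAs, all of them seen, was 466844 to 547261 normalized CPM (counts per library size after TMM scaling, a scaling to a common set of arms) in model and 274785 to 499779 in Keluoxin libraries, and 2 of its 10 tested arms were called lower. The 4 erythroid miRNAs summed to 89.6 to 110.1 CPM in model and 87.3 to 791.8 in Keluoxin, and the red cell miRNA miR-451a to 20.8 to 43.6 and 24.9 to 649.7; 1 of 3 tested erythroid arms was called higher. The endothelial list, of which 1 of 2 miRNAs was seen, stood at 1597 to 2122 and 1099 to 1415 CPM, with 1 of 2 arms called lower. Mural cell miRNAs stood at 2503 to 4182 and 3255 to 6983, muscle miRNAs at 298 to 427 and 286 to 1911, leukocyte miRNAs at 114.5 to 214 and 121 to 240.3, and pigment epithelium miRNAs at 9445 to 12237 and 10369 to 12169 CPM; among these 4 lists, 1 muscle arm was called higher and none lower. Keluoxin replicate 4 stood apart, with the lowest retinal sum and the highest mural and muscle sums (6983 and 1911 CPM, where the next highest Keluoxin libraries had 5113 and 414.7). Of all 812 tested arms, 9.24% were called higher and 8.0% lower (edgeR adjusted p under 0.05). The summed endothelial level did not overlap between the groups, and the levels of 7.88% of single arms did not either. The part of these cell types in the results on the family was not tested. Red cells are known to hold much miR-16, and in bulk tissue fewer cells of a type and less RNA per cell cannot be told apart.

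miR-16-5p made up most of the family in every library. It took 82.2 to 85.8% of the family's reads in model and 77.5 to 84.5% in Keluoxin libraries, and ranked between 43 and 58 among all arms. The 5 5p arms together held 98.2 to 99.0% of the family's reads. In order of their model means, miR-195a-5p followed, then miR-15b-5p and miR-15a-5p, whose model ranges overlapped, and then miR-497a-5p. Both miR-15a-3p and miR-497a-3p did not pass the filter on low counts: the first had 18 reads in 4 libraries and the second 2 reads in 1 library. The other 9 arms were tested.

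One of the 9 tested arms, miR-16-2-3p, was called higher in Keluoxin libraries and none was called lower (quasi-likelihood test in edgeR over 812 arms, p after Benjamini-Hochberg adjustment under 0.05). Of all 812 arms, 9.24% were called higher and 8.0% lower, 17.2% in all, so the family's share of calls was near the background. The median log2 fold change was −0.13 over the 9 arms and 0.03 over all arms. In no family arm did the levels of the groups fail to overlap, against 7.88% of all arms. The split of all calls between higher and lower depended on the scaling: it was 75 to 65 with TMM, 90 to 26 with total counted reads and 72 to 109 with the upper quartile, which moved the median of all arms to 0.22 and −0.22.

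**Figure D1:**
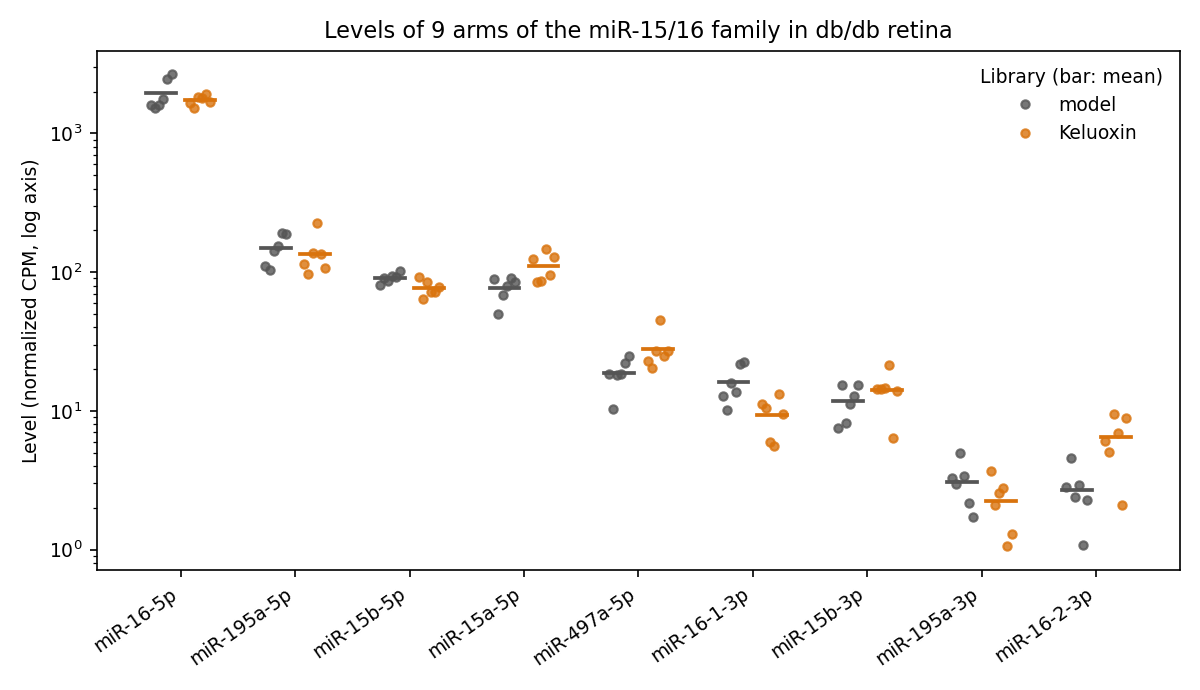
Normalized CPM on a log axis of the 9 tested arms in 6 model (grey) and 6 Keluoxin (orange) libraries, each point 1 library and each bar a group mean. miR-16-5p lies at 1520.1 to 2664 CPM in all libraries, and the points of the groups overlap in every arm, least in miR-16-2-3p, where 5 of 6 Keluoxin libraries lie above all model libraries.

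miR-16-5p had a lowest, median and highest level of 1520.1, 1691 and 2664 CPM in model and 1529, 1753 and 1912 in Keluoxin libraries. The Keluoxin libraries all lay within the model range, since model replicates 5 and 6 were the 2 highest of all. The log2 fold change was −0.16 (SE 0.15, edgeR adjusted p = 0.453) and was 0.04 with total counted reads as the scaling. With 1 library left out it ran from −0.26 (without Keluoxin replicate 3) to −0.08 and −0.05 (without model replicates 5 and 6).

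miR-15a-5p, made from the Dleu2 pair, stood at 50.01, 82.7 and 90.6 CPM (lowest, median, highest) in model and 84.3, 110.04 and 146.7 in Keluoxin libraries. In 4 of 6 Keluoxin libraries it was above all model libraries, with a log2 fold change of 0.52 (SE 0.19, edgeR adjusted p = 0.0740), which did not pass the threshold. It passed when annotated precursors alone were fitted (0.62, edgeR adjusted p = 0.0488), and was 0.43 without Keluoxin replicate 4 (adjusted p = 0.135). With other scalings it ran from 0.27 with the upper quartile (edgeR adjusted p = 0.335) to 0.75 with total counted reads (adjusted p = 0.0566). Its near relative miR-15b-5p, made from the Smc4 pair, differed in the other direction, at 80.6, 91.7 and 102.2 CPM in model and 64.5, 74.7 and 92.1 in Keluoxin libraries. Here 4 of 6 Keluoxin libraries lay below all model libraries, and the log2 fold change of −0.24 did not pass either (SE 0.12, edgeR adjusted p = 0.161). Counted from reads with no changed base, it was 0.04. The number of miR-15a-5p reads for each miR-15b-5p read was 0.853 ± 0.188 in model and 1.45 ± 0.36 in Keluoxin libraries (SD, n = 6 each), with 5 of 6 Keluoxin libraries above all model libraries.

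The pair on chromosome 11 did not keep 1 ratio. miR-195a-5p stood at 103.8, 148.2 and 190.3 CPM in model and 97.1, 124.1 and 224.4 in Keluoxin libraries (log2 fold change −0.13, SE 0.23, edgeR adjusted p = 0.694), and its fold change was 0.11 with total counted reads. miR-497a-5p stood at 10.4, 18.5 and 24.7 CPM in model and 20.2, 25.8 and 45.2 in Keluoxin libraries (0.58, SE 0.24, adjusted p = 0.112). Neither passed the test. With the upper quartile miR-497a-5p was at 0.31 (edgeR adjusted p = 0.395), and with total counted reads at 0.82 (adjusted p = 0.0694). Each read of miR-497a-5p was matched by 8.06 ± 1.31 reads of miR-195a-5p in model and 4.86 ± 0.48 in Keluoxin libraries, from 6.04 to 10.02 and from 3.98 to 5.43 (SD, n = 6 each). This ratio, which does not depend on scaling, did not overlap between the groups; the same held for 5.79% of all pairs of annotated arms. Keluoxin replicate 4, the library with the highest mural and muscle sums, was the highest for both arms. Without it the log2 fold changes were −0.33 for miR-195a-5p (edgeR adjusted p = 0.243) and 0.39 for miR-497a-5p (adjusted p = 0.221).

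**Figure D2:**
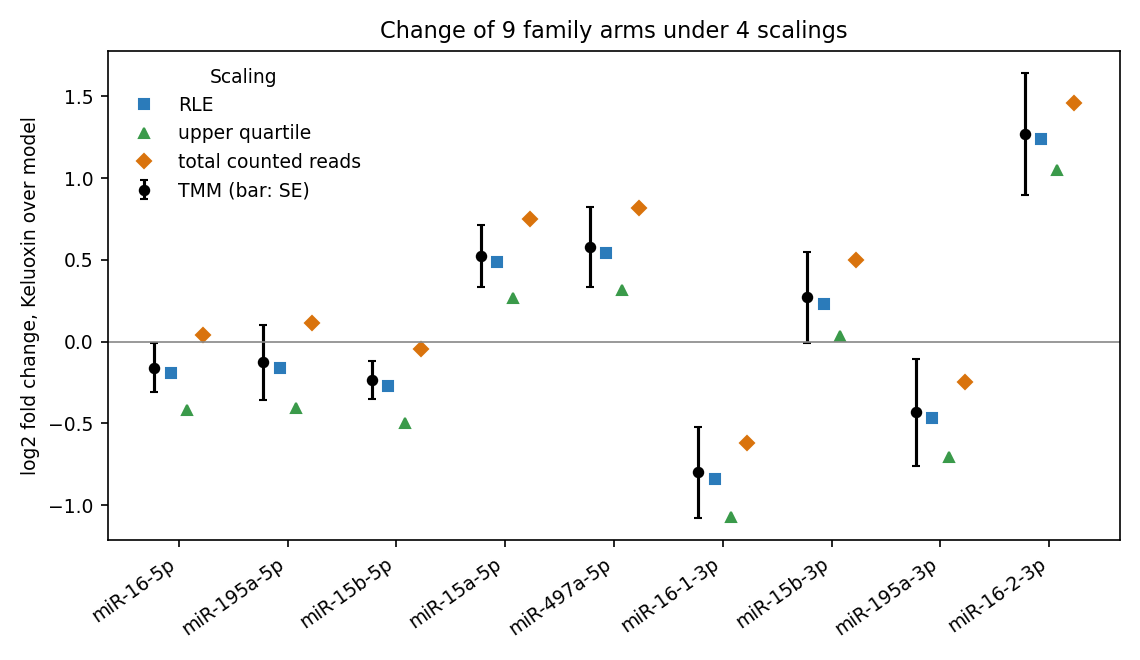
Log2 fold change (Keluoxin over model) of the 9 tested arms under 4 scalings, with the SE of the TMM fit as a bar. Values shift together from the upper quartile to total counted reads, miR-16-5p from below 0 to 0.04 and miR-195a-5p to 0.11, while miR-16-2-3p stays above 1 and miR-16-1-3p below 0.

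The 3p arms separate the mir-16 copies. miR-16-2-3p, from the Smc4 pair, stood at 1.09, 2.62 and 4.61 CPM in model and 2.11, 6.49 and 9.53 in Keluoxin libraries. These were few reads, 6 to 28 in model and 4 to 56 in Keluoxin libraries. It rose with a log2 fold change of 1.27 (SE 0.37, edgeR adjusted p = 0.0348) and was above all model libraries in 5 of 6 Keluoxin libraries; the exception, Keluoxin replicate 5, had 4 reads. The call did not hold when any 1 of model replicates 3, 4, 5 and 6 or Keluoxin replicates 1, 3, 4 and 6 was left out (log2 fold change 1.07 to 1.49 over all 12 such fits, adjusted p 0.0558 to 0.0808 in those 8). It was also lost with reads that had no changed base (0.82, edgeR adjusted p = 0.146).

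miR-16-1-3p, from the Dleu2 pair, differed the other way, at 10.2, 14.7 and 22.7 CPM in model and 5.55, 10.02 and 13.2 in Keluoxin libraries. Its log2 fold change of −0.80 did not pass (SE 0.28, edgeR adjusted p = 0.0658), and 3 of 6 Keluoxin libraries lay below all model libraries. It passed with the upper quartile (−1.07, adjusted p = 0.0274), with DESeq2 (−0.85, adjusted p = 0.0251), with reads that had no changed base (−1.14, adjusted p = 0.0202) and without model replicate 1 (−0.86, adjusted p = 0.0461). It did not pass with total counted reads (−0.62, edgeR adjusted p = 0.111) or with no filter on low counts (−0.86, adjusted p = 0.111). The 11 other fits with 1 library left out did not pass either (adjusted p up to 0.133). Reads with no changed base made up 84.3% ± 5.2 of this arm in model and 56.9% ± 9.0 in Keluoxin libraries (SD, n = 6 each). Some of its reads were the loop sequence printed above, which begins 20 bases before the 3p arm. Loop reads numbered 2 to 25 in model and 2 to 12 in Keluoxin libraries, and without them the log2 fold change was −0.74 (edgeR adjusted p = 0.0984). Of the 3p reads of both copies, loop reads included, mir-16-2 gave 15.7% ± 9.1 in model and 41.1% ± 17.5 in Keluoxin libraries (SD, n = 6 each). It gave 4.76 to 31.1% in model libraries, and 13.8% in Keluoxin replicate 5 but 32.4 to 61.5% in the other Keluoxin libraries.

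**Figure D3:**
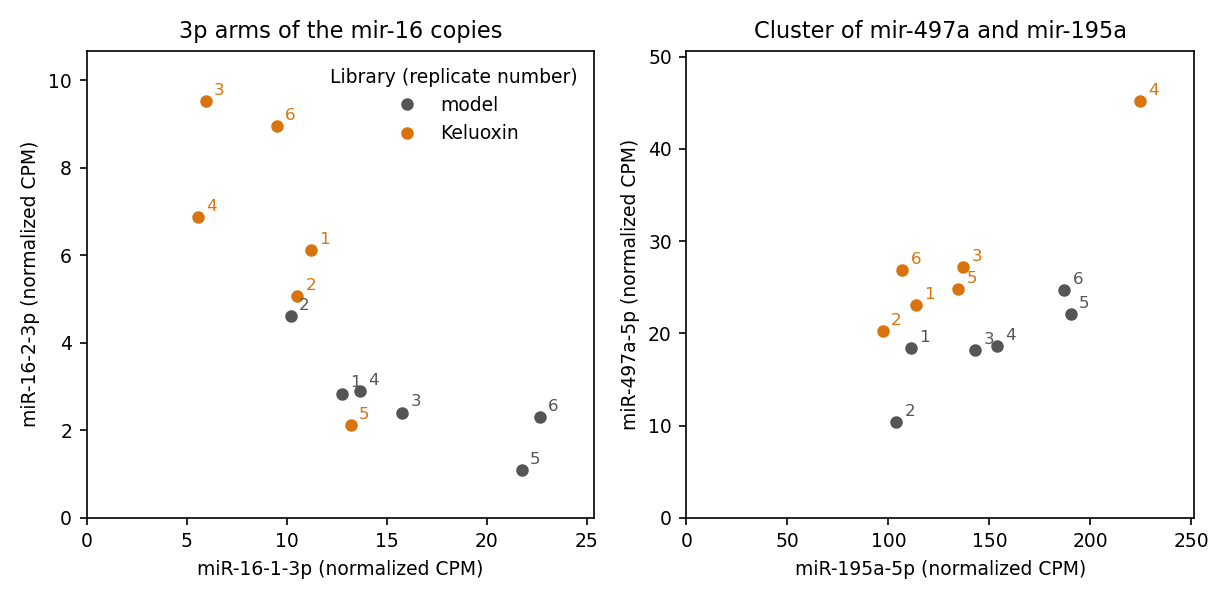
Normalized CPM of miR-16-2-3p against miR-16-1-3p (left) and of miR-497a-5p against miR-195a-5p (right), each point 1 library marked with its replicate number. On the left 5 of 6 Keluoxin libraries (orange) lie above all model libraries (grey) on the vertical axis, and on the right the Keluoxin libraries have more miR-497a-5p at a given miR-195a-5p level, with Keluoxin replicate 4 highest on both axes.

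A few miR-16-5p reads, the most frequent of them 24 nt long, reach the first loop bases, where the copies differ, and lay on 1 copy alone. There were 34 to 60 such reads for mir-16-1 in model and 38 to 111 in Keluoxin libraries, and 35 to 70 and 38 to 80 for mir-16-2. They made up 0.630% and 0.548% of the arm's reads. For mir-16-1, whose 3p arm was at a lower level in Keluoxin libraries, 4 of 6 Keluoxin libraries had more of these reads than any model library (48 ± 10.3 reads in model and 71.8 ± 25.1 in Keluoxin), and for mir-16-2 they numbered 51.8 ± 13.8 and 52.3 ± 16.6 (SD, n = 6 each, not scaled to depth and not tested). The unchanged 24-nt form of mir-16-1 (395 reads) had means of 29.5 and 36.3, with 1 of 6 Keluoxin libraries above all model libraries. Its forms with C or G at base 23 went from means of 2.0 to 9.67 and 3.5 to 8.33. For mir-16-2, 78 reads were unchanged, and more had a missing base (151 reads) or a changed base (103 reads). A 23-nt read with an added base can look like either unchanged form. The remaining 3p arms, miR-15b-3p (log2 fold change 0.27, SE 0.28, edgeR adjusted p = 0.486) and miR-195a-3p (−0.43, SE 0.33, adjusted p = 0.351), did not pass. miR-15b-3p stood at 7.56 to 15.5 CPM in model and 6.34 to 21.4 in Keluoxin libraries, and miR-195a-3p at 1.72 to 4.94 and 1.06 to 3.67.

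The ratio of 5p to 3p reads was tested for miR-16, miR-15b and miR-195a, and none of the 3 was called (limma, 160 precursors or copy sets tested, 14.4% called). In miR-16 the log2 ratio was 6.67 ± 0.11 in model and 6.78 ± 0.26 in Keluoxin libraries (SD, n = 6 each). Its 3p side is the sum of miR-16-1-3p, loop reads included, and miR-16-2-3p, whose log2 fold changes were −0.80 and 1.27. The ratio therefore does not show arm use at either copy. The difference was 0.11 in miR-16 (limma adjusted p = 0.631), −0.48 in miR-15b (adjusted p = 0.230) and 0.31 in miR-195a (adjusted p = 0.614).

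Read length changed in miR-15b-5p. Its mean length was 20.65, 20.74 and 20.87 nt (lowest, median, highest) in model and 20.39, 20.46 and 20.53 nt in Keluoxin libraries, with no overlap, as in 2.35% of all arms (lower without overlap). The fall of 0.29 nt passed the test (SE 0.044, limma adjusted p = 0.00304 over 383 arms), as it did in each fit that left out 1 library. Of the 4 members tested, 1 was called lower and 0 higher, against 2.61% lower and 5.48% higher among all 383 arms. The lengths of miR-16-5p (0.20 nt longer, adjusted p = 0.0962), miR-15a-5p (0.09 nt, adjusted p = 0.388) and miR-195a-5p (0.06 nt, adjusted p = 0.563) did not pass. miR-497a-5p had 47 reads in Keluoxin replicate 5, under the 50 required, and was not tested.

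All reads of miR-15b-5p began at the same base in all 12 libraries, so its lengths differ at the 3′ end. Reads of 19 nt made up 14.8 to 18.6% of the arm in model and 24.2 to 29.4% in Keluoxin libraries. Reads of 21 nt made up 43.8 to 52.6% in model and 29.3 to 39.4% in Keluoxin libraries. Neither range overlapped, against 10.7% of the 1615 length classes compared over all arms with 50 or more reads in every library. Reads of 22 nt, the length of the RefSeq entry, stood at 25.5% ± 3.4 and 24.8% ± 2.9 (SD, n = 6 each).

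Among single sequences of miR-15b-5p, the 19-nt read shown above went from 12.2% ± 1.5 to 17.8% ± 2.7 (SD, n = 6 each), above all model libraries in 5 of 6. The 21-nt read with a changed last base, a T in place of the precursor's next base, went from 14.9% ± 2.6 to 6.60% ± 2.91. It lay between 12.3 and 18.8% in model and between 2.93 and 11.4% in Keluoxin libraries, with no overlap; 11.2% of the read forms compared were lower without overlap. The unchanged 21-nt read stood at 25.7% ± 2.1 and 22.7% ± 3.8. With changed reads left out, the mean length still fell, by 0.32 nt (limma adjusted p = 0.0174).

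miR-15a-5p, which matches miR-15b-5p at 18 of 22 positions, had another pattern. Reads of 20 nt made up 15.0 to 19.9% in model and 6.89 to 10.99% in Keluoxin libraries, and reads of 21 nt 53.2 to 62.5% and 63.8 to 73.8%, again with no overlap in either class. The unchanged 20-nt read went from 11.7 to 16.8% of the arm in model to 2.75 to 7.21% in Keluoxin libraries, a description without a test. Reads of 22 nt made up 23.8 to 32.1% of miR-497a-5p in model and 16.7 to 23.6% in Keluoxin libraries. Here the ranges nearly met, on 63 to 136 reads of the arm in model and 47 to 342 in Keluoxin libraries. With so few reads, miR-497a-5p is not among the arms behind the 1615 length classes. In miR-16-5p, 23-nt reads stood at 12.9 to 20.4% in model and 18.8 to 25.4% in Keluoxin libraries, above all model libraries in 5 of 6. No length class of miR-195a-5p between 20 and 23 nt was free of overlap.

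**Figure D4:**
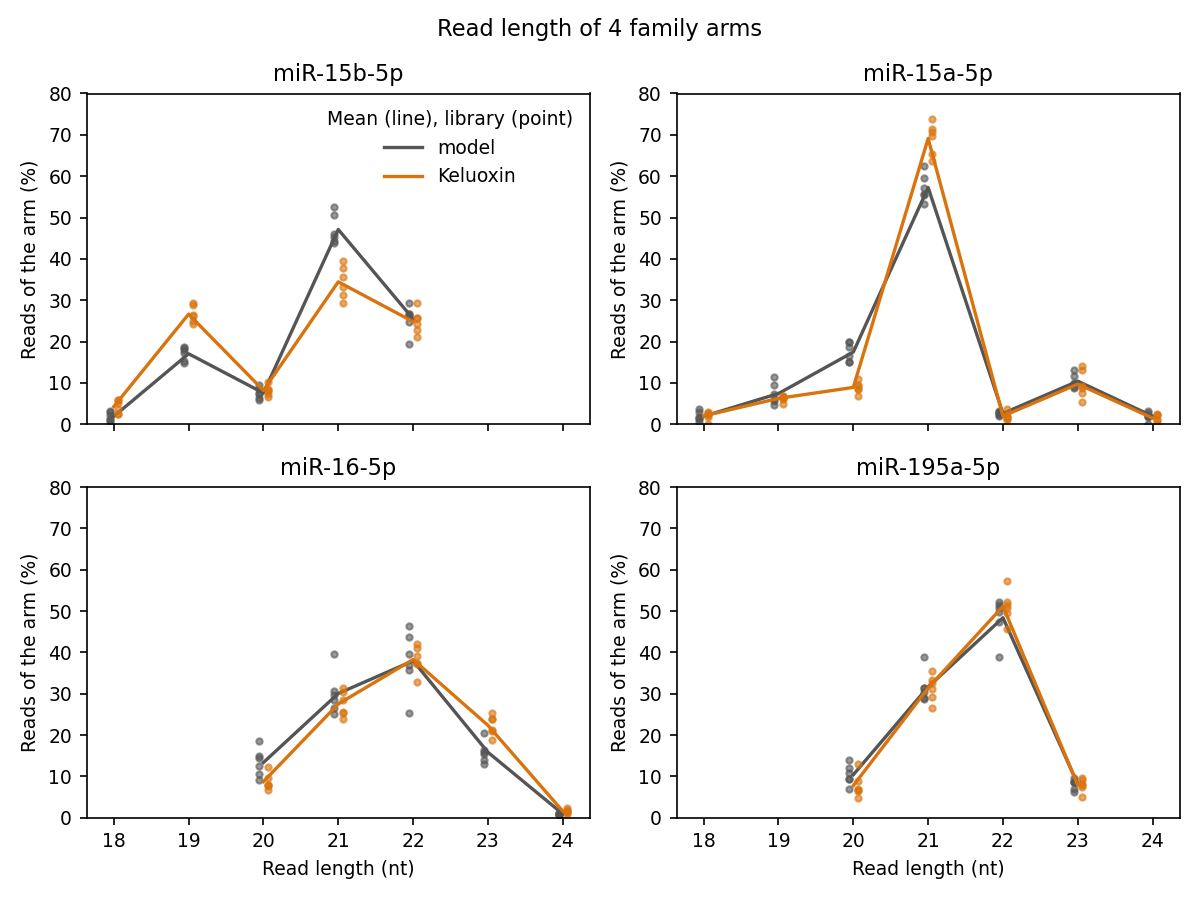
Share (%) of the reads of miR-15b-5p, miR-15a-5p, miR-16-5p and miR-195a-5p by read length in nt, lines joining group means and points for the libraries (model grey, Keluoxin orange). miR-15b-5p has more 19-nt and fewer 21-nt reads in Keluoxin libraries, miR-15a-5p fewer 20-nt and more 21-nt reads, and the points of miR-195a-5p overlap at each length from 20 to 23 nt.

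The 5′ end, which sets the seed, was nearly fixed in the main arms. miR-195a-5p began at 1 base in all reads, as did miR-15b-5p, and the most frequent start held at least 99.89% of miR-16-5p reads and at least 99.3% of miR-15a-5p reads in every library. The start shares of miR-16-5p and miR-15a-5p were tested and neither was called (limma adjusted p = 0.848 and 0.919); 3.77% of 371 arms were. For miR-497a-5p the main start held 92.65 to 96.83% in model and 96.88 to 100% in Keluoxin libraries, which was not tested. These ranges nearly met and rest on 63 to 136 reads in model and 47 to 342 in Keluoxin libraries. The share of all arms whose start shares did not overlap is not given here. Starts of miR-16-1-3p were scattered, and the most frequent one held 27.1 to 33.8% of reads in model and 19.6 to 36.0% in Keluoxin libraries.

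The share of reads whose last 2 bases hold a base that differs from the precursor was tested in 4 arms of the family, and 3 of them rose in Keluoxin libraries. Bases are known to be added to the 3′ end of miRNAs after cutting; the tables do not tell added bases from reading errors, and an added base that equals the precursor's next base is not seen as changed. In miR-16-5p the share was 37.9, 41.8 and 42.5% (lowest, median, highest) in model and 42.1, 47.9 and 50.1% in Keluoxin libraries, a rise of 5.83 points (SE 1.31, limma adjusted p = 0.00448). miR-195a-5p rose by 8.66 points (SE 2.14, adjusted p = 0.00684), from 27.4, 31.3 and 32.3% to 32.2, 41.0 and 44.7%. miR-15a-5p rose by 8.06 points (SE 2.70, adjusted p = 0.0280), from 24.7, 29.2 and 35.8% to 27.8, 39.4 and 44.9%. In each of these arms 5 of 6 Keluoxin libraries were above all model libraries.

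The same share was also higher over all counted reads. Of the 4 members tested, 3 were called higher and 0 lower, while 50.7% of all 379 arms were called higher and 1.58% lower, so the count is near the background. Over all counted reads, the share changed in the last 2 bases was 31.4% ± 1.2 in model and 37.0% ± 3.5 in Keluoxin libraries (SD, n = 6 each, exact permutation test, p = 0.0130, adjusted over 3 library measures 0.0195). A changed base anywhere in the read was found in 40.7% ± 1.7 and 48.2% ± 2.5 (exact permutation p = 0.00217, the smallest these libraries can give, adjusted 0.00650). In miR-16-5p, reads with any other change also went from 5.42% ± 0.53 to 7.02% ± 0.65 of the arm, without overlap. This class holds changed bases before the last 2 and reads with a gap anywhere. The share of all arms in which it did not overlap is not given here. The part of this library-wide difference in the family's values was not tested. The lowest Keluoxin share for the last 2 bases, 30.3%, was that of replicate 4, which also had the lowest value of the group in miR-16-5p and miR-15a-5p. Without that library the rise in miR-15a-5p was 10.1 points (limma adjusted p = 0.00177). Its call did not hold when any 1 of model replicates 2, 4 and 5 or Keluoxin replicates 1, 5 and 6 was left out (adjusted p 0.0503 to 0.0597).

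miR-15b-5p did not follow, with 29.3, 31.9 and 33.9% in model and 20.5, 31.2 and 36.1% in Keluoxin libraries (3.03 points lower, SE 2.59, limma adjusted p = 0.337). Keluoxin replicates 4 and 5 lay below all model libraries and the other 4 between 31.2 and 36.1%. Separated by base, T (U in RNA) as the changed base went from 14.7 to 21.1% of miR-15b-5p reads in model to 4.396 to 13.7% in Keluoxin libraries, with no overlap; this lower share without overlap was seen in 5.01% of arms. C was higher without overlap, going from 2.17 to 3.85% to 4.23 to 10.99%, as in 23.5% of arms. In the reads of all other arms pooled, T stood at 10.2% ± 0.7 and 9.60% ± 0.58, and C at 5.01% ± 0.94 and 9.07% ± 1.5 (SD, n = 6 each).

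By base, the other main arms differed among themselves. C went from 1.95 to 4.59% of miR-16-5p reads in model to 4.67 to 8.70% in Keluoxin libraries, and G from 2.97 to 5.72% of miR-195a-5p reads to 6.27 to 12.4%, neither overlapping. G was higher without overlap in 33.5% of arms. The most common changed base of miR-16-5p was A, at 23.1% ± 1.4 and 22.4% ± 1.4 (SD, n = 6 each), and its 22-nt read ending in A stood at 12.8% ± 1.6 and 12.4% ± 1.3 of the arm. The 22-nt read of miR-16-5p ending in T went from 0.941 to 2.51% to 2.78 to 4.56%, without overlap, as did 2.71% of read forms. The miR-195a-5p read ending in G went from 2.85% ± 1.25 to 7.21% ± 2.10. Its last bases make it the same as miR-16-5p there, but the 2 arms still differ in the middle.

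In miR-16-1-3p 9.26 to 22.8% of reads in model and 29.4 to 50.9% in Keluoxin libraries had a changed base in the last 2. It had too few reads (25 to 55 in Keluoxin libraries) to be tested, and 15.0% of the tested arms were higher without overlap. As the changed base, T stood at 0 to 7.59% of its reads in model and 9.80 to 24% in Keluoxin libraries, and A at 3.23 to 9.26% and 0 to 11.8%. The 15.0% is for any changed base. The share of all arms in which T was higher without overlap is not given here, so this difference has no background beside it.

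**Figure D5:**
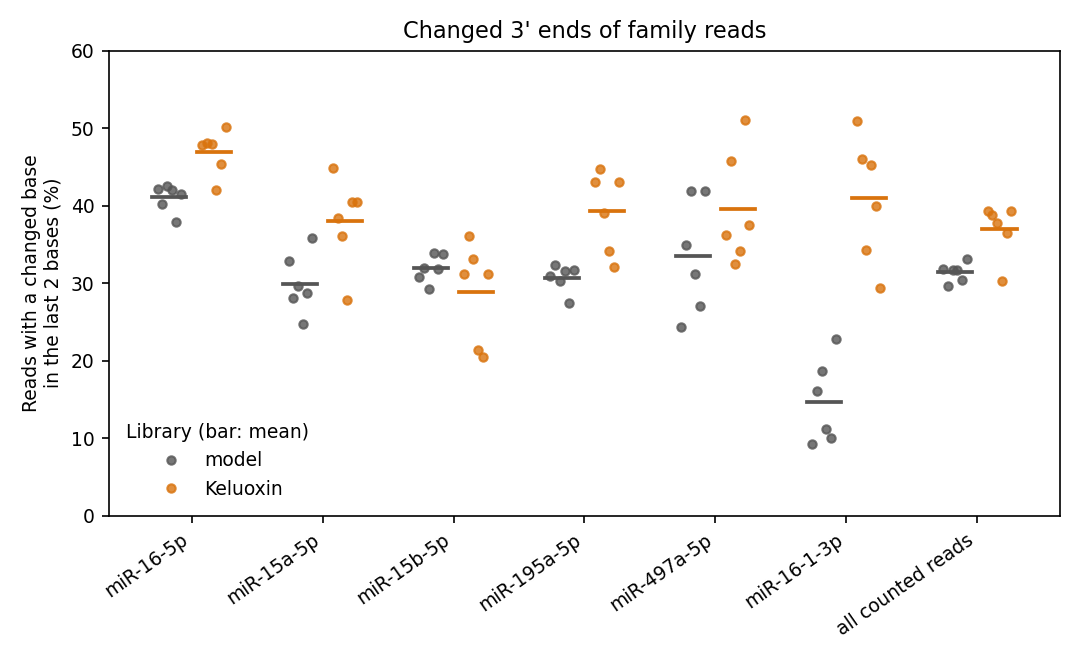
Share (%) of reads with a changed base in the last 2 bases for 6 family arms and for all counted reads, each point 1 library and each bar a group mean (model grey, Keluoxin orange). All counted reads go from a mean of 31.4% to 37.0%, miR-16-5p, miR-15a-5p and miR-195a-5p lie higher in 5 of 6 Keluoxin libraries, and 2 Keluoxin libraries of miR-15b-5p lie below all model libraries.

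Of 8 other precursors listed as relatives, all had reads, but only 2 arms had a most frequent read with the seed AGCAGCA. One was miR-195b-5p, with 9 reads in all. The other was miR-322-5p, known as the mouse form of miR-424, which stood at 2.60 to 7.43 CPM in model and 3.06 to 10.2 in Keluoxin libraries (log2 fold change 0.45, SE 0.34, edgeR adjusted p = 0.348). The 3p arm of mir-322 had a log2 fold change of 0.34 (adjusted p = 0.670). No other arm of these relatives had more than 31 reads.

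Across the 12 libraries, the arms of other annotated miRNAs whose log2 CPM was most like that of a member differed from member to member. The 12 points share their library, depth and scaling. For miR-16-5p they were miR-378c-5p (Pearson's r = 0.87), miR-124-5p and miR-425-5p (both 0.86), and for miR-15a-5p miR-151-5p, miR-29c-3p (both 0.93) and miR-154-3p (0.92). For miR-15b-5p they were miR-467b-5p (0.83), miR-467a-5p and miR-671-5p (both 0.81). For miR-195a-5p they were miR-542-3p (0.95), miR-152-3p (0.78) and miR-378c-5p (0.75), and for miR-497a-5p miR-151-5p (0.85), miR-341-3p (0.84) and miR-143-5p (0.83). miR-378c-5p and miR-151-5p each stood on the lists of 2 members.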

How the data were processed

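Each of the 12 libraries was made from 1 µg of total RNA, with inserts of 15 to 35 nt, per the labels' protocols. Novoalign, Bowtie, cutadapt and bcl2fastq are named, with neither version nor role, per the submitters' processing notes. For the precursors, neither genome build nor miRBase release is given in the sources used here. The deposited tables list read sequences of at least 2 reads with whole-number read counts per precursor, not normalized, per the file headers. The authors divided the count of a sequence among its precursors; the undivided number in its name was used here, counted once for copies that share an arm and split equally between different arms, 5p or 3p by the middle of the precursor. Read lengths are as deposited.

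Levels were tested with edgeR 4.0.16 (TMM, low-count filter, quasi-likelihood) in R 4.3.3. The log2 ratio of 5p to 3p reads (each plus 0.5), mean read length, start share and changed-end share were tested with limma 3.58.1, the last 3 where each library had 50 or more reads of an arm, all adjusted by Benjamini-Hochberg. Both were tested on simulated data. Library measures had exact permutation tests over 924 assignments. DESeq2 1.42.0 served as an alternative. No library pair was a copy (smallest chi-square per degree of freedom 70.2 over 66 pairs).

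The members, the lists of cell type markers and of relatives, and the rule for named arms (all member arms, the relatives, and the 3 arms most correlated with each 5p member) were chosen with earlier results of these data known. Other scalings, filters, read classes and left-out libraries were tried as alternatives. PCR reads without molecular identifiers are not independent molecules.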

Additional observations from a re-analysis of the deposited data

Results flagged for a closer look

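In 3 of 40 groups of 6 libraries checked, 1 library stood apart from the rest by Dixon's test; chance marks about 1 in 20 groups. miR-195a-5p was at 224 CPM in Keluoxin replicate 4, and the next Keluoxin library was at 136.9. In the same library miR-497a-5p was at 45.2 CPM, and the next was at 27.2. The same library had the highest sums of mural and muscle miRNAs; their part in these values was not tested. The log2 ratio of 5p to 3p reads of miR-16 was 6.46 in model replicate 3, and the next lowest model library was at 6.67.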

How the results depend on the processing

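The 140 calls on levels became 238 with DESeq2, 73 with annotated precursors only, and 72 to 245 when 1 library was left out (245 with model replicate 1 left out, 85 with the third and 72 with the fourth). The 23 calls on arm ratios became 10 to 27 with 1 library left out. The 31 calls on read length became 14 with at least 200 reads in every library, 48 with reads of 18 to 26 nt, 4 with reads with no changed base, and 14 to 76 with 1 library left out (76 without Keluoxin replicate 4). The 14 calls on read start became 6 to 24, and the 198 on changed ends stayed between 156 and 233. Directions reversed in members that were not called: with total counted reads miR-16-5p was at 0.043 and miR-195a-5p at 0.11, and with reads with no changed base miR-15b-5p was at 0.037. With the upper quartile miR-15b-5p came near the threshold (−0.50, edgeR adjusted p = 0.0559). The start share of miR-15a-5p, −0.04 points, was 0.011 with reads of 18 to 26 nt and −0.11 to 0.065 with 1 library left out, positive without Keluoxin replicate 1. miR-16-2-3p also lost its call with the upper quartile (1.05, edgeR adjusted p = 0.0615) and with no filter on low counts (1.21, adjusted p = 0.102). Where no construction of the setting shows it, the cause was not tested. Leaving out both model replicate 1 and Keluoxin replicate 4, and leaving out the loop reads, were chosen after seeing the data; the first gave 219 calls on levels and miR-16-2-3p at 1.27 (adjusted p = 0.0559).

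No label says that same-numbered libraries of the groups share more than a number, and whether they were handled together is not known. The correlations of their deviations ran from 0.041 to 0.242, 4 of 6 were over 0.1, and 2 of 12 libraries correlated best with their own number. With the replicate block, calls were 133 on levels, 13 on arm ratios, 51 on read length, 4 on read start and 211 on changed ends. Under the block miR-15a-5p (0.52, edgeR adjusted p = 0.0475) and the length of miR-16-5p (0.20 nt, limma adjusted p = 0.0474) passed. Depth limits the 3p arms most, with 4 to 56 reads of miR-16-2-3p per library, and intervals from counting were not used.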

Other observations

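Some miR-15b-3p reads began 5 or more bases inside the arm, 0 to 42 per library in model and 0 to 99 in Keluoxin libraries. The most frequent of them, tttgctgctctagtctgt, had 58 reads in all. At the other starts there were 26 to 66 reads in model and 12 to 86 in Keluoxin libraries. The inner reads are counted in the miR-15b-3p level and in the miR-15b ratio of 5p to 3p reads given above. With 1 library left out, the difference in that log2 ratio ran from −0.67 to −0.32. It was −0.32 without Keluoxin replicate 4 (limma adjusted p = 0.362), which had 162 miR-15b-3p reads. The part of the inner reads in this was not tested.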
